A study of Mus musculus with 6 samples.

Results

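The respiratory chain and ATP synthase of mouse macrophages were followed at the transcript level, through the genes that the nucleus and the mitochondrial genome contribute to complexes I to V. Nuclear members were taken by gene symbol (Nduf, Sdh, Uqcr, Cox and Atp5 families, without 2 symbols that end in -ps) and joined with the 13 mitochondrially encoded protein genes. Of 40213 genes in the files, 103 matched and 92 had at least 10 counts in 3 libraries, 79 nuclear and all 13 mitochondrial. The nuclear members kept were 39 of 43 for complex I, 4 of 4 for complex II, 8 of 8 for complex III, 11 of 18 for complex IV and 17 of 17 for complex V. The mitochondrial members were 7 for complex I, 1 for complex III, 3 for complex IV and 2 for complex V. The rule for choosing them used no measured difference, although it was set with earlier results of these data known. Around the minimum, Ndufb4b was kept with 23, 11 and 6 counts in controls 1 to 3 and 32, 44 and 0 in MNP 1 to 3. Cox7a1 was not kept, with 9, 9 and 17 and then 5, 10 and 8 counts. The 11 genes not kept, Cox7a1 with Cox4i2, Cox6a2, Cox6b2, Cox7b2, Cox8b, Cox8c, Ndufa4l2, Ndufa11b, Ndufb11b and Ndufs6b, had at most 17 counts in any library.

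Both groups, of 3 libraries each, were bone marrow-derived macrophages of C57BL/6 mice. They were cultured for 4 days in 10% serum, 1% antibiotic and 25 ng/ml macrophage colony-stimulating factor. One group received no particles. The other was exposed for 24 h to 50 µg of polystyrene micro- and nanoplastics (MNP), in a volume that the labels leave out. The labels give no genotype change, age or sex, do not size the particles, and do not say whether replicates came from separate animals or cultures, so p-values reflect only how these 6 libraries vary, which may be technical. The series title points the comparison at macrophage function and glutathione metabolism.

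Complexes I and II pass electrons from NADH and succinate to ubiquinone, complex III passes them to cytochrome c, and complex IV passes them to oxygen. Complexes I, III and IV pump protons across the inner mitochondrial membrane, and complex V, the ATP synthase, lets them flow back to make ATP. The subunits that carry out much of the proton transfer are encoded in the mitochondrial genome, which is transcribed as long precursor RNAs that are then cut into single messages, whereas all of complex II and most other subunits are made from nuclear messages. In macrophages the chain is also known as a source of reactive oxygen species and as a point at which inflammatory activation changes metabolism.

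Some mitochondrial messages hold a pair of reading frames. Their overlaps are shown because counts of these genes cannot be read as independent. The last 60 bases of each upstream gene follow, from the GENCODE M21 transcripts (GRCm38, mitochondrial genome), with the bases shared with the downstream gene in capitals.
ATP8 into ATP6: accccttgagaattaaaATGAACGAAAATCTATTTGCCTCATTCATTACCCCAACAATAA
ND4L into ND4: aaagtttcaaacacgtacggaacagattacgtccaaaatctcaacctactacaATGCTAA
ATP8 (204 bases) and ATP6 (681 bases) share 43 bases, and ND4L (297 bases) and ND4 (1378 bases) share 7. How reads over these bases were assigned is not given in the sources used here.

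Library totals were 20262859 to 23042146 counts. A single count was 0.0434 to 0.0494 CPM by library totals alone. CPM are counts over the library size, adjusted by TMM factors. Not so adjusted are this range, the 3-count limit, the marker sums and the sum of the subunit c genes. All 6 macrophage markers were present, with summed levels of 4204 to 4583 CPM in controls and 3802 to 3923 CPM in MNP libraries. Counts of Adgre1, Csf1r, Mertk and Fcgr1 were lower in every MNP library than in every control. Those of Itgam and Cd68 overlapped (Cd68 8459, 10070 and 11917 against 10675, 12934 and 10538). Neutrophil markers summed to 165 to 244 CPM in controls and 109 to 125 CPM in MNP libraries, with Ly6g at 0 to 2 counts. Counts of S100a9, Mpo, Camp and Ltf were lower in every MNP library, while those of S100a8 and Elane overlapped. Mast cell and basophil markers, almost all of it Kit, summed to 8.78 to 11.7 and 15.4 to 18.9 CPM. Endothelial markers, mostly Kdr, summed to 18.1 to 22.3 and 12.7 to 16.0 CPM, while Cdh5 counts were 9, 6 and 3 against 20, 8 and 4. Dendritic cell markers summed to 3.99 to 7.25 and 2.06 to 3.52 CPM, where only Siglech counts did not overlap. None of 4 T and NK cell or 3 B cell markers reached 10 counts. A count was present for 20222 to 24062 genes in controls and 18240 to 18672 in MNP libraries. Mitochondrial ribosomal RNA set MNP 1 apart, at 0.115%, while MNP 2 and 3 had 0.0268% and 0.0332% and controls 0.0217% to 0.0264%. Its genes mt-Rnr1 and mt-Rnr2 were called higher in the test described below (edgeR adjusted p = 0.0479 and 0.0237), with overlap for mt-Rnr1. The gene Gm26917 took 1.02% of counts in MNP 1 and 0.251% to 0.444% in the other libraries. Control 1 had the most genes detected and the lowest mitochondrial messages. Whether these features had a part in the results was not tested, and values without control 1 and MNP 1 are given below. In bulk RNA, fewer cells of a type and less RNA per cell cannot be told apart.

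After MNP, 5 of 13 mitochondrially encoded messages rose and none fell (adjusted p under 0.05, edgeR's quasi-likelihood test with Benjamini-Hochberg adjustment over 12893 genes). These were COX1 and COX3 of complex IV and ND4, ND4L and ND5 of complex I. The share was 38.5% of the 13, against 9.11% of all genes called higher and 8.35% called lower. The median log2 fold change of the 13 was 0.37, against -0.01 over all genes. Of the nuclear members, 2 of 79 rose and 3 fell, 2.53% and 3.80%, both below the shares over all genes, and their median was 0.01. Within ±0.2 on the log2 scale lay 64 of the 79. With library totals as the only scaling, which moves the median of all genes from -0.01 to -0.10, 2 members were called higher and 11 lower instead of 7 and 3, and the medians were 0.29 for mitochondrial and -0.08 for nuclear members. The difference between the genomes was not itself tested.

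COX1 encodes the catalytic subunit of cytochrome c oxidase, which holds the site where oxygen is reduced. Its level was 3982, 4717 and 5366 CPM in controls 1 to 3 and 6304, 6712 and 7310 CPM in MNP 1 to 3. Every MNP library lay above every control library. The log2 fold change was 0.53 ± 0.09 (SE, n = 3 per group), 1.45-fold (edgeR adjusted p = 0.00129). COX1 was called in all 16 alternative analyses and was the only mitochondrial message that DESeq2 called, where DESeq2 called 9.76% of all genes higher and 8.45% lower.

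COX3, a core subunit next to COX1 in complex IV, measured 3249, 4192 and 4708 CPM in controls and 4505, 5351 and 5714 CPM in MNP libraries. The groups overlap, since control 3 lies above MNP 1. It rose by 0.36 ± 0.12 (log2, SE; edgeR adjusted p = 0.0486) and was called in 10 of 16 alternatives. COX2, which takes electrons from cytochrome c, measured 3118, 3919 and 4714 against 4369, 5013 and 5057 CPM and did not pass (log2 0.30, edgeR adjusted p = 0.0953). Of the 3 mitochondrial subunits of complex IV, 2 therefore passed, and the COX3 call is close to the threshold.

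ND4 encodes a proton-pumping membrane subunit of complex I. It measured 765, 1159 and 1189 CPM in controls and 1273, 1427 and 1552 CPM in MNP libraries. The groups did not overlap, and ND4 rose by 0.45 ± 0.13 (log2, SE; edgeR adjusted p = 0.0307). Its neighbour ND4L, the small membrane subunit that shares 7 bases with it, measured 161, 208 and 247 against 233, 265 and 346 CPM, with control 3 above MNP 1. ND4L rose by 0.46 ± 0.15 (edgeR adjusted p = 0.0477). ND5, the most distal pumping subunit, measured 1486, 1979 and 2229 against 2225, 2492 and 2748 CPM. ND5 rose by 0.39 ± 0.12 (edgeR adjusted p = 0.0374), with control 3 and MNP 1 almost equal, so the groups overlap by a narrow margin. These calls held in 12, 10 and 11 of 16 alternatives for ND4, ND4L and ND5.

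The other 4 mitochondrial subunits of complex I did not pass. ND1, which lines the ubiquinone site, had a log2 fold change of 0.38 (edgeR adjusted p = 0.0613) and ND2, a pumping subunit, 0.32 (edgeR adjusted p = 0.173). ND3 measured 259, 381 and 411 CPM in controls and 331, 382 and 391 CPM in MNP libraries, a log2 fold change of 0.07 (edgeR adjusted p = 0.758) that turned to -0.10 without control 1. ND6 is the one protein message read from the opposite strand. It measured 84.4, 72.9 and 83.8 CPM in controls and 82.1, 77.1 and 81.6 CPM in MNP libraries. Its log2 fold change was -0.00 ± 0.07 (SE; edgeR adjusted p = 0.986), and its sign turned between alternatives. Since the strand setting of the counting is not given, ND6 reads and reads of the opposite strand cannot be told apart.

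CYTB, the mitochondrial cytochrome b of complex III, measured 1578, 2297 and 2528 CPM in controls and 2634, 2819 and 2850 CPM in MNP libraries. The groups did not overlap, but it did not pass (log2 0.37, edgeR adjusted p = 0.0568). ATP6, the proton channel subunit of complex V, measured 2662, 3770 and 4640 against 4351, 4813 and 5462 CPM (log2 0.40, edgeR adjusted p = 0.0815). ATP8, its small partner on the same message, measured 714, 1042 and 1364 against 994, 1314 and 1511 CPM (log2 0.29, edgeR adjusted p = 0.316). For both, MNP 1 lay below control 3.

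**Figure D1:**
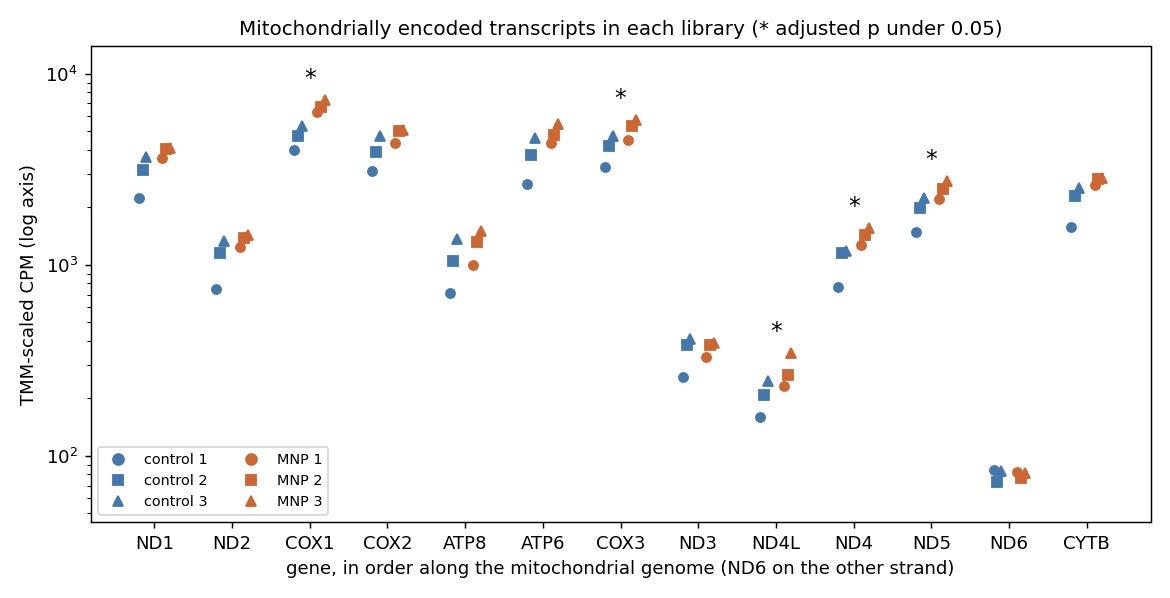
TMM-scaled CPM (log axis) of the 13 mitochondrially encoded protein genes in each of 6 libraries, in genome order. Blue marks controls, orange MNP libraries, shapes the library number and * an edgeR adjusted p under 0.05. Control 1 is the lowest library for 12 of 13 genes and MNP 3 the highest for 11 of 13, while ND6 lies between 72.9 and 84.4 CPM in all 6.

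The mitochondrial messages varied more among the controls than the nuclear ones. The highest over the lowest control was 1.55 at the median of the 13 mitochondrial genes and 1.14 at that of the 79 nuclear genes, and in MNP libraries these ratios were 1.18 and 1.12. Only COX1, ND4 and CYTB, 3 of 13 (23.1%), had all MNP libraries above all controls, against 17.2% of all genes above and 17.4% below. The size of the difference and the number of calls depended on single libraries, while the median stayed positive in each omission. Without control 1, the median log2 fold change of the 13 was 0.21. It was 0.42 without control 2, 0.53 without control 3, 0.45 without MNP 1, 0.36 without MNP 2 and 0.29 without MNP 3. Leaving out both control 1 and MNP 1, a choice made after seeing the data, gave 0.27 with 9 of 13 called. Over all genes, 1230 were then called higher. Of the 13, 11 were called without control 3, 4 without control 1, 2 without control 2, 5 without MNP 1, and 1 each without MNP 2 and without MNP 3. In the same order, 1106, 1241, 868, 1010, 799 and 793 of all genes were called higher, against 1174 with all 6 libraries.

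Summed over the 13 genes, mitochondrial messages took 2.17%, 2.90% and 3.33% of all counts in controls 1 to 3 and 3.13%, 3.53% and 3.69% in MNP 1 to 3, with control 3 above MNP 1. The 79 nuclear genes took 0.507%, 0.524% and 0.538% in controls and 0.490%, 0.498% and 0.504% in MNP libraries. As shares of the unscaled totals, every MNP library lay below every control, by small amounts. The ratio of mitochondrial to nuclear counts, which does not depend on the scaling, was 4.27, 5.54 and 6.18 in controls and 6.38, 7.09 and 7.32 in MNP libraries. These ratios did not overlap, although control 3 was nearly as high as MNP 1.

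Ratios within a library were taken for COX1, which had the highest fold change of the 13, over ND6 and ND3, which had the lowest. The pairs were chosen after these values were seen, so the ratios are a description and their separation follows from the choice. COX1 over ND6 was 47.2, 64.7 and 64.0 in controls and 76.8, 87.1 and 89.6 in MNP libraries. COX1 over ND3 was 15.4, 12.4 and 13.1 in controls and 19.0, 17.6 and 18.7 in MNP libraries.

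**Figure D2:**
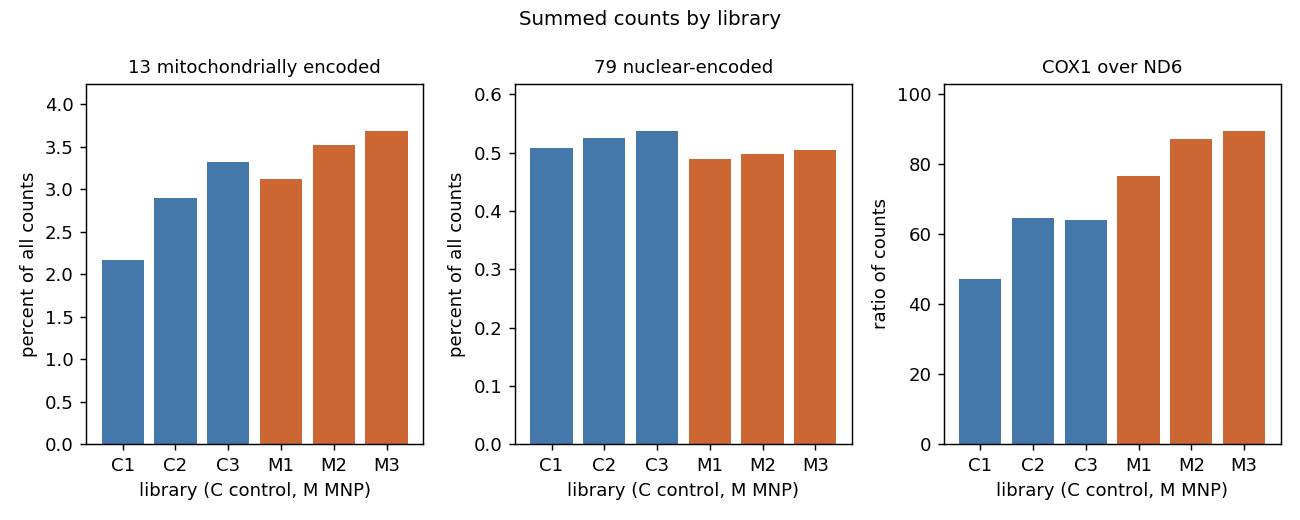
Bars from 0 give, for each library (C control, M MNP), the percent of all counts from the 13 mitochondrial genes, the percent from the 79 nuclear genes, and COX1 counts over ND6 counts. The mitochondrial share spans 2.17% to 3.69%, the nuclear share 0.490% to 0.538%, and COX1 over ND6 is at most 64.7 in controls and at least 76.8 in MNP libraries.

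Complex I takes the most nuclear subunits. None of its 39 nuclear members passed in either direction with edgeR, DESeq2 or limma-voom. At an unadjusted edgeR p under 0.05, 2 were higher and 3 lower (5.13% and 7.69%, against 15.2% and 14.7% of all genes), and the median log2 fold change was -0.03. limma-voom called 9.25% of all genes higher and 8.12% lower. The core nuclear subunits carry the flavin and the iron-sulphur clusters or build the ubiquinone site. Ndufs7, which holds an iron-sulphur cluster, measured 19.8, 20.3 and 21.5 CPM in controls and 21.8, 23.4 and 21.9 CPM in MNP libraries. The groups did not overlap, and it did not pass (log2 0.12, edgeR adjusted p = 0.384).

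Among accessory subunits, which surround the core and are needed to assemble or stabilize it, the lowest log2 fold change was that of Ndufv3. It measured 13.4, 15.4 and 17.1 CPM in controls and 9.71, 12.3 and 13.9 CPM in MNP libraries, with overlap (log2 -0.36, edgeR adjusted p = 0.105). Ndufs5 measured 31.6, 34.3 and 34.3 against 30.9, 28.2 and 27.7 CPM without overlap (log2 -0.21, edgeR adjusted p = 0.105). Ndufa6 measured 55.0, 61.6 and 69.3 against 48.0, 51.7 and 59.8 CPM (log2 -0.22, edgeR adjusted p = 0.147). On the other side, Ndufc1 measured 16.9, 22.1 and 20.4 against 22.6, 26.7 and 23.8 CPM without overlap (log2 0.30, edgeR adjusted p = 0.0845). Ndufa10 measured 50.2, 49.3 and 49.6 against 53.5, 58.8 and 54.1 CPM (log2 0.16, edgeR adjusted p = 0.145). None of these 5 passed. Ndufs5 also has a copy outside the set, Ndufs5-ps, with 41 to 70 counts, and reads may be shared between them. The highest fitted value, 0.96 for Ndufb4b, rests on at most 44 counts, and reads of this gene may be shared with its near-identical copies Ndufb4 (416 to 625 counts) and Ndufb4c (115 to 196 counts), so its value is uncertain.

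**Figure D3:**
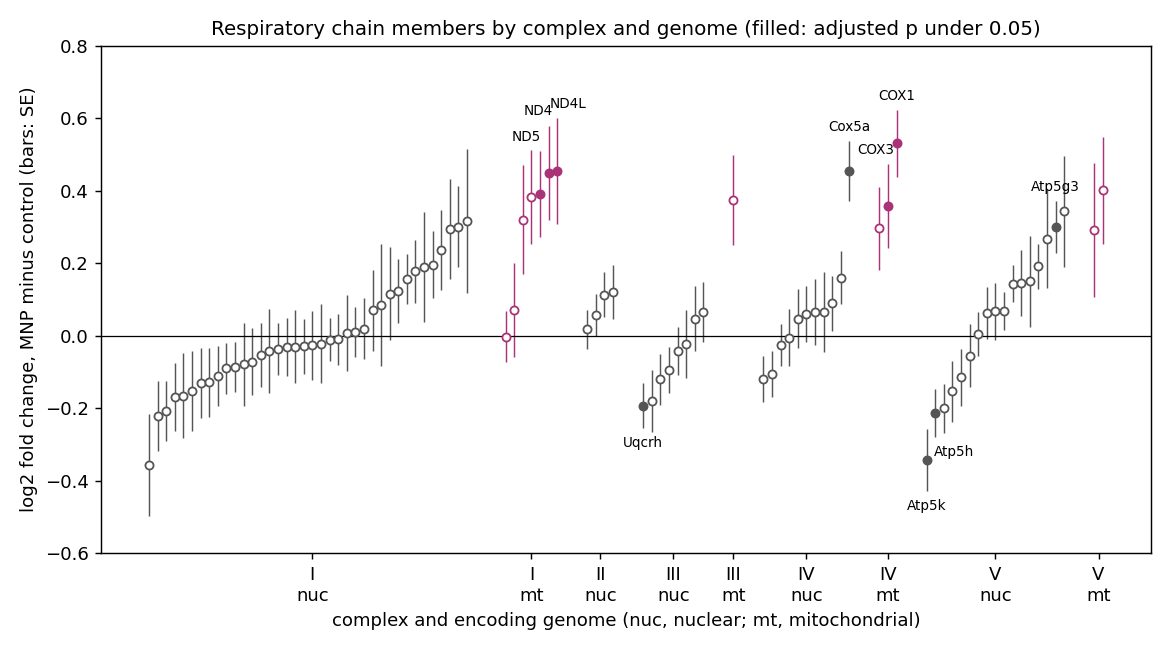
Log2 fold change (MNP minus control, bars SE) of 91 members by complex and encoding genome, ordered by value, without Ndufb4b. Filled points passed at an edgeR adjusted p under 0.05. The mitochondrial members of complexes III, IV and V lie between 0.29 and 0.53, and the nuclear members of complex I lie on both sides of 0 with none filled.

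Complex II is wholly nuclear and also serves the citric acid cycle. Sdha, its flavoprotein, measured 203, 192 and 189 CPM in controls and 193, 199 and 200 CPM in MNP libraries. Sdhb, the iron-sulphur subunit, measured 117, 110 and 112 against 114, 115 and 122 CPM. The membrane anchor Sdhc measured 67.6, 71.1 and 72.5 against 78.0, 76.4 and 74.2 CPM without overlap, and the anchor Sdhd measured 48.3, 44.7 and 49.0 against 53.9, 52.4 and 48.2 CPM. The log2 fold changes were 0.02, 0.06, 0.11 and 0.12 for Sdha, Sdhb, Sdhc and Sdhd. None of the 4 passed with edgeR, DESeq2 or limma-voom, and none had an unadjusted edgeR p under 0.05. With library totals alone, Sdha and Sdhb turned to -0.07 and -0.03.

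In complex III, 1 of 8 nuclear members fell (12.5%, against 8.35% of all genes) and none rose (against 9.11%). Uqcrh, the hinge protein that helps dock cytochrome c, measured 115, 113 and 114 CPM in controls and 106, 92.0 and 101 CPM in MNP libraries. The controls were close together and every MNP library lay below them. Uqcrh fell by 0.19 on the log2 scale (SE 0.06; edgeR adjusted p = 0.0486), a call that held in 8 of 16 alternatives. The small subunits Uqcr10 and Uqcrq had log2 fold changes of -0.18 and -0.12 and did not pass (edgeR adjusted p = 0.176 and 0.275). The Rieske iron-sulphur protein Uqcrfs1 measured 73.6, 75.8 and 69.8 against 67.1, 68.0 and 70.1 CPM, with overlap (log2 -0.10, edgeR adjusted p = 0.339). The core proteins Uqcrc1 and Uqcrc2 were at -0.04 and 0.06, and Uqcrc2 turned to -0.02 with library totals alone.

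In complex IV, 1 of 11 nuclear members rose (9.09%, against 9.11% of all genes) and none fell (against 8.35%). Cox5a, a matrix-side subunit around the catalytic core, measured 29.0, 29.8 and 30.2 CPM in controls and 44.7, 39.3 and 37.9 CPM in MNP libraries. The controls were tightly grouped and every MNP library lay above them. The log2 fold change was 0.45 ± 0.08 (SE), 1.37-fold (edgeR adjusted p = 0.00189). It was the only nuclear member called in all 16 alternatives, with log2 fold changes of 0.37 to 0.51. Cox8a, a small membrane subunit, measured 43.1, 41.5 and 44.7 against 45.1, 49.3 and 50.0 CPM without overlap, and did not pass (log2 0.16, edgeR adjusted p = 0.166). Cox4i1, a regulatory subunit that binds adenine nucleotides, measured 237, 224 and 234 against 210, 199 and 231 CPM (log2 -0.12, edgeR adjusted p = 0.226). Cox7a2l, known as a factor for supercomplexes of complexes III and IV, was at -0.03. Whether it has this function in these cells was not examined. Ndufa4, carried under complex I by its symbol but now assigned to complex IV, measured 44.0, 48.8 and 57.6 against 54.6, 58.6 and 59.3 CPM (log2 0.20, edgeR adjusted p = 0.174).

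Several complex IV subunits exist as isoforms of other tissues or of low oxygen, and these were near 0 here. Over all 6 libraries Cox4i1 had 29166 counts and Cox4i2, the lung and hypoxia form, 3. Cox6a1 had 4801 and the muscle form Cox6a2 15. Cox6b1 had 6157 and the testis form Cox6b2 31. Cox7a2 had 7054 and the muscle form Cox7a1 58. Cox8a had 5981 and Cox8b none, and Ndufa4 had 7069 and Ndufa4l2 none. No MNP or control library showed more than 17 counts of any of these second forms.

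Complex V gave calls in both directions, 1 of 17 nuclear members higher and 2 lower (5.88% and 11.8%, against 9.11% and 8.35% of all genes). At this size these are near the shares over all genes. The rotating membrane ring is built from a single mature protein, subunit c, which 3 genes encode with different import sequences. Atp5g3, the most abundant of them here per transcript length, measured 52.4, 47.4 and 53.1 CPM in controls and 64.5, 64.4 and 59.5 CPM in MNP libraries. The groups did not overlap, and Atp5g3 rose by 0.30 ± 0.07 (log2, SE; edgeR adjusted p = 0.0114). Atp5g1 measured 8.57 ± 0.62 CPM in controls and 10.9 ± 2.14 CPM in MNP libraries (SD, n = 3; log2 0.34, edgeR adjusted p = 0.148), and Atp5g2 measured 14.0, 14.0 and 16.4 against 14.5, 21.4 and 17.6 CPM (log2 0.27, edgeR adjusted p = 0.210). In both, MNP 1 fell within the controls. The summed CPM of the 3 genes, by library totals without TMM factors, was 76.5, 72.9 and 80.2 in controls. In MNP libraries it was 85.3, 96.6 and 84.2, without overlap.

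The catalytic head F1 has 5 subunits, and none passed with edgeR. DESeq2 and limma-voom each called 2 higher (40%, against 9.76% and 9.25% of all genes). At an unadjusted edgeR p under 0.05, 2 were higher (40%, against 15.2%). Atp5b, the catalytic beta subunit, measured 424, 428 and 442 CPM in controls and 470, 473 and 486 CPM in MNP libraries without overlap (log2 0.14, edgeR adjusted p = 0.0749). Atp5c1, the gamma subunit of the central shaft, measured 174, 185 and 199 against 206, 209 and 224 CPM without overlap (log2 0.19, edgeR adjusted p = 0.0511). Atp5a1, the alpha subunit, measured 339, 341 and 340 against 346, 360 and 364 CPM without overlap, a log2 fold change of 0.07 that turned to -0.02 with library totals alone. The delta and epsilon subunits of the shaft, Atp5d and Atp5e, were at 0.15 and -0.12. The inhibitor of ATP hydrolysis, Atpif1, which the symbol rule does not take, measured 158 ± 8.50 CPM in controls and 163 ± 5.99 CPM in MNP libraries (SD, n = 3; edgeR adjusted p = 0.612).

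Both members that fell belong to the stalk and membrane part. Atp5k, subunit e, which holds ATP synthase dimers together, measured 34.2, 37.7 and 41.4 CPM in controls and 29.5, 30.5 and 29.4 CPM in MNP libraries. The groups did not overlap, and it fell by 0.34 on the log2 scale (SE 0.09; edgeR adjusted p = 0.0141). Atp5h, subunit d of the peripheral stalk, measured 139, 136 and 135 against 108, 116 and 130 CPM, all MNP libraries below all controls. It fell by 0.21 (SE 0.07; edgeR adjusted p = 0.0452), and MNP 3 lay close to the controls. Atp5j2, subunit f in the membrane, measured 73.8, 74.6 and 79.2 against 61.6, 67.4 and 69.1 CPM without overlap and did not pass (log2 -0.20, edgeR adjusted p = 0.0588). Atp5j of the peripheral stalk was at -0.15 (edgeR adjusted p = 0.249). Atp5g3, Atp5k and Atp5h kept their calls in 13, 13 and 9 of 16 alternatives.

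**Figure D4:**
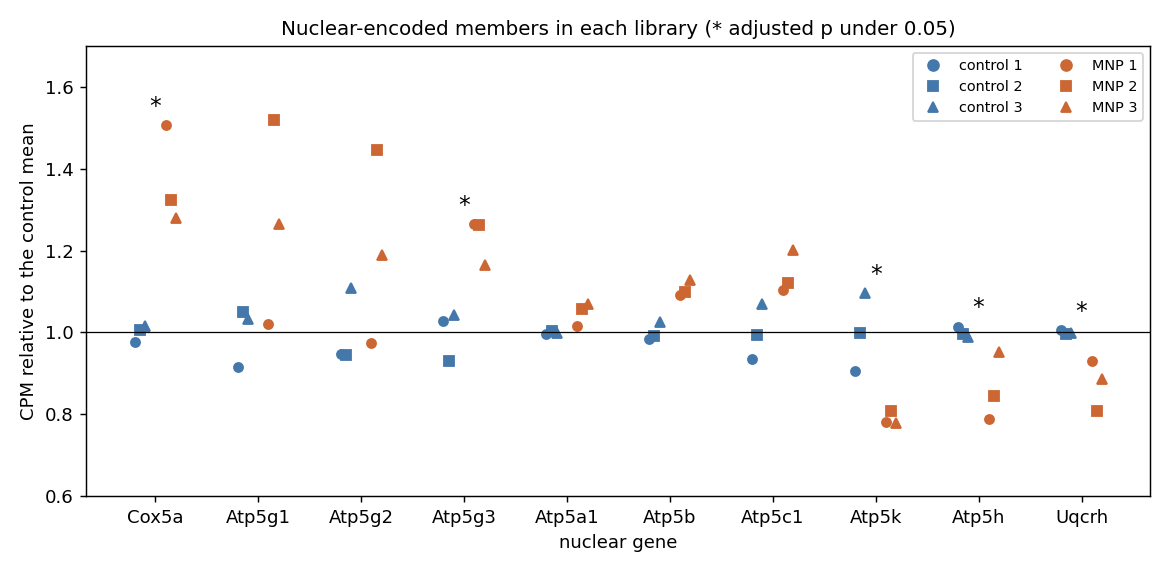
CPM in each library divided by the gene's control mean, for 10 nuclear members of complexes III to V, with * at an edgeR adjusted p under 0.05. The MNP libraries of Cox5a and Atp5g3 all lie above the control mean and those of Atp5k, Atp5h and Uqcrh all lie below it, while in Atp5g1 and Atp5g2 MNP 1 lies among the controls.

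Over the 79 nuclear members, 11 had all MNP libraries above all controls and 7 had all below, 13.9% and 8.86%, under the 17.2% and 17.4% over all genes. Side by side, the nuclear medians were -0.03, 0.09, -0.07, 0.06 and 0.07 for complexes I to V, and the mitochondrial medians were 0.38 for complex I and 0.36 for complex IV. Over all genes 9.11% were called higher. Within complex I this held for 3 of 7 mitochondrial and 0 of 39 nuclear members, and within complex IV for 2 of 3 and 1 of 11. These are counts only, since neighbouring mitochondrial messages share precursors and overlap, and are not independent of each other.

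Levels were compared between genes per length, as CPM per kilobase of transcript. The median of the 13 mitochondrial genes was 1866 in controls and 2419 in MNP libraries, and that of 76 nuclear genes with a length was 59.5 and 60.8. The ratio of these medians was 31.3 in controls and 39.8 in MNP libraries. In controls the highest mitochondrial level per kilobase was that of COX2, 5726, and the lowest that of ND6, 155, with COX1 at 3035. Among nuclear genes Cox4i1 was highest, 306, and Atp5g1 lowest, 3.20. By complex the nuclear medians in controls were 37.0 for complex I, 52.8 for II, 66.4 for III, 94.4 for IV and 118 for V, and in MNP libraries 36.8, 54.9, 63.7, 98.5 and 99.4. The order of the 5 complexes was the same in both groups, although IV and V were close in MNP libraries. In complex V the gene at the median changed, from Atp5k in controls to Atp5e in MNP libraries. The median log2 fold change of its nuclear members was 0.07. Among the nuclear members of complex I, Ndufa6 was highest at 162 and 139.

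**Figure D5:**
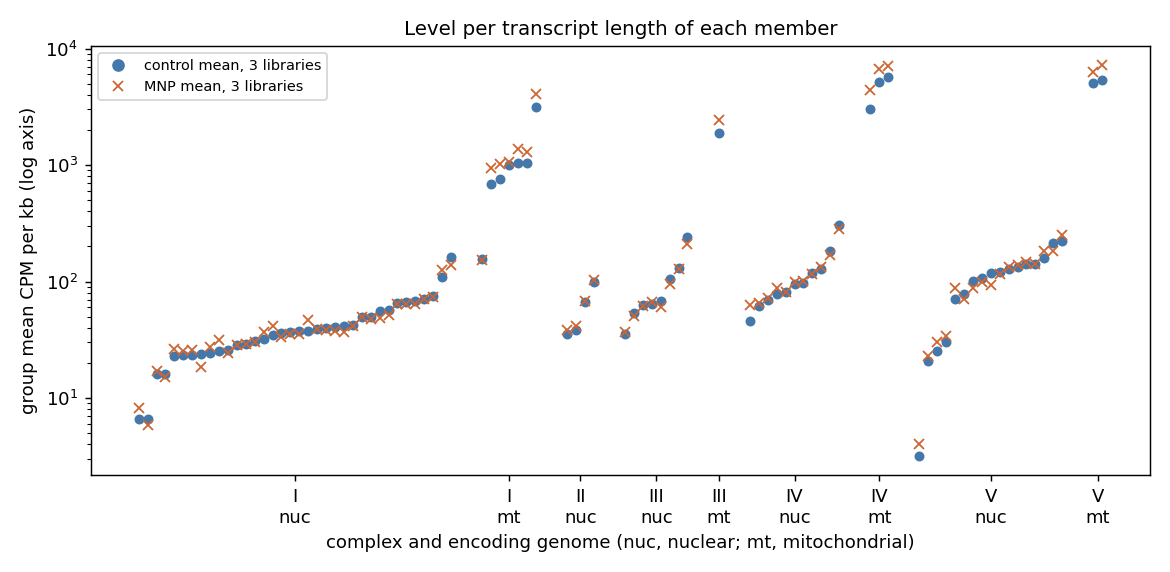
Group mean CPM per kilobase of transcript (log axis) of the 89 members with a length, by complex and encoding genome, ordered by the control mean (circles, controls; crosses, MNP). The mitochondrial genes other than ND6 lie above every nuclear gene in both groups, and the nuclear crosses lie close to their circles.

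Upstream sequences are shown for the nuclear members with the firmest rise (Cox5a), the largest fall among called members (Atp5k) and the called fall in complex III (Uqcrh). They are the 250 bases before the start of transcription, from RefSeq on GRCm38.p6, at chr9:57520982-57521231 (plus strand), chr5:108434400-108434649 (minus strand) and chr4:116075071-116075320 (minus strand). Capitals mark a match to one of 3 motifs searched on both strands.
Cox5a: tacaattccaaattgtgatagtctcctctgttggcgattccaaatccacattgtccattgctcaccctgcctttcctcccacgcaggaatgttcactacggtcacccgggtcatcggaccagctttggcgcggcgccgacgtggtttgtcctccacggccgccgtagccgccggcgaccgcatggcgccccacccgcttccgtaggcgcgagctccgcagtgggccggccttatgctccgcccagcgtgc
Atp5k: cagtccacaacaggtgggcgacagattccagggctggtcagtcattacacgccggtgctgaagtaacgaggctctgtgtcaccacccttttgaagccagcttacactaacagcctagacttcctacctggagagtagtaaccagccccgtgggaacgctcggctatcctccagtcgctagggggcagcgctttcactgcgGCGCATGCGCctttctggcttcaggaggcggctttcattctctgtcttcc
Uqcrh: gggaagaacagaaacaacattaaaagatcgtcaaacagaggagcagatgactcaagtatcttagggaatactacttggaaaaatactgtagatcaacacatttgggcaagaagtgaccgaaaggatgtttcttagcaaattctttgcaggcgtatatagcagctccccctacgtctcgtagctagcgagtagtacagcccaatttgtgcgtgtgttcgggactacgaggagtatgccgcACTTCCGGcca
The motifs were GCGCATGC for NRF1 and CCGGAAGT for GABP, both regulators of respiratory genes, and TGACNNNGC for the antioxidant response element, the site of NRF2. Atp5k holds an NRF1 match read on both strands, where the matches overlap, Uqcrh and Atp5h each hold a GABP match, and Cox5a and Atp5g3 hold none of these letters in this window. Of 66 nuclear members with an upstream sequence, 8 (12.1%) held the NRF1 motif, against 2.56% of 27025 genes. Those are all genes with such a sequence, expressed here or not, and a share among expressed genes was not taken. The GABP motif was in 3 (4.55%), against 3.23%, and the antioxidant motif in 6 (9.09%), against 11.5%. The third GABP match was in Uqcr11 (log2 0.05), which was not called. The members with the NRF1 motif besides Atp5k were Ndufa8, Sdhb, Cox6a1, Atp5l, Atp5g2, Ndufa6 and Ndufa11. Their log2 fold changes were 0.18, 0.06, 0.09, 0.07, 0.27, -0.22 and -0.03 in this order, and none was called. A match is a stretch of letters, and binding was not measured.

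Genes that assemble, supply or regulate the chain were read from the same fit, in which 9.11% of all genes were called higher and 8.35% lower. Of the assembly factors, 19, 4, 9, 26 and 6 were tested for complexes I to V, and 1 rose and 1 fell among them. Sco2, a copper carrier for complex IV, measured 6.33, 5.17 and 7.17 CPM in controls and 9.67, 10.1 and 7.79 CPM in MNP libraries and rose by 0.56 (log2; edgeR adjusted p = 0.0310). Ndufaf2, a complex I assembly factor, measured 8.15, 9.74 and 11.1 against 5.90, 7.58 and 7.12 CPM and fell by 0.49 on the log2 scale (edgeR adjusted p = 0.0457). Of 23 electron carrier genes 1 fell, Etfdh, which passes electrons from fatty acid oxidation to ubiquinone (38.9, 36.0 and 38.7 against 27.8, 31.5 and 32.3 CPM, edgeR adjusted p = 0.0213). Cytochrome c1, Cyc1, a complex III subunit outside the symbol rule, was at 0.23 and cytochrome c, Cycs, at 0.14, and neither passed (edgeR adjusted p = 0.0968 and 0.290).

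Genes of the machinery that makes mitochondrial RNA were called at 5.26% or 0% of each list in each direction, 1 or none of 19, which at this size is near the shares over all genes. Of 19 genes of mitochondrial DNA maintenance and transcription, Mterf3, a transcription and ribosome assembly factor, was the 1 that rose (16.5, 17.9 and 19.6 against 21.9, 22.5 and 22.2 CPM, log2 0.30, edgeR adjusted p = 0.0441), and none fell. Of 19 genes of mitochondrial RNA processing and stability, Fastkd3 rose (13.1, 10.9 and 10.6 against 19.6, 15.02 and 13.8 CPM, log2 0.49, edgeR adjusted p = 0.0314). Pnpt1, the mitochondrial RNA-degrading phosphorylase, fell by 0.30 on the log2 scale (56.3, 55.3 and 49.5 against 41.7, 42.4 and 46.9 CPM, edgeR adjusted p = 0.0192). Of 78 mitochondrial ribosomal protein genes 2 rose and 3 fell (2.56% and 3.85%). Mrps6 rose by 0.48 (edgeR adjusted p = 0.00440) and Mrps2 by 0.32 (edgeR adjusted p = 0.0419), while Mrpl52 and Mrpl13 fell by 0.43 and 0.36 on the log2 scale (edgeR adjusted p = 0.00787 and 0.0313). The calls of Mrps6 and Mrpl52 held in all 16 alternatives, and that of Mterf3 in 8.

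Of 12 nuclear regulators of respiratory genes, 1 rose and 1 fell (8.33% each, near the shares over all genes). Hcfc1, a coactivator partner, measured 124, 122 and 129 CPM in controls and 140, 153 and 147 CPM in MNP libraries and rose by 0.23 (log2; edgeR adjusted p = 0.0118). Gabpa, the DNA-binding subunit of GABP, measured 81.8, 96.2 and 92.5 against 67.2, 80.4 and 76.9 CPM and fell by 0.27 on the log2 scale (edgeR adjusted p = 0.0358). In the list for uncoupling and ADP/ATP exchange, 3 of 7 rose (42.9%, against 9.11% of all genes) and none fell. Slc25a3, the phosphate carrier that feeds ATP synthase, measured 141, 139 and 153 against 174, 190 and 164 CPM (log2 0.29, edgeR adjusted p = 0.00850). Ucp2, an inner membrane carrier of the uncoupling protein family, measured 241, 223 and 245 against 286, 302 and 258 CPM (log2 0.25, edgeR adjusted p = 0.0179), and the outer membrane channel Vdac3 measured 62.6, 71.0 and 72.0 against 80.3, 80.5 and 81.2 CPM (log2 0.24, edgeR adjusted p = 0.0295). In Hcfc1, Slc25a3, Ucp2 and Vdac3 every MNP library lay above every control, and in Gabpa every MNP library lay below.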

How the data were processed

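Per the labels, total RNA of 6 libraries went through the CORALL RNA-seq V2 kit. What the authors deposited is a table for each library with whole-number counts by gene symbol. The submitters' processing notes list GATK, Salmon, STAR and fastp and the build GRCm39 without roles or versions. Annotation, strand, molecular identifiers and rounding are not described in the sources used here. Sample titles gave the groups and replicate numbers. Replicates within a group differed by more than counting noise (chi-square per degree of freedom 6.69 to 19.8), so each was counted on its own.

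The test was that of edgeR 4.0.16 on R 4.3.3 (TMM scaling, default expression filter, quasi-likelihood test for MNP minus control) on 12893 genes, with Benjamini-Hochberg adjustment at 0.05. All 92 members passed that filter. The SE was the log2 fold change's size divided by √F. The steps were tested on simulated counts. Depth was 20262859 to 23042146 counts. By library totals alone, 3 counts, the limit that a count of 0 allows, were 0.130 to 0.148 CPM. Members, markers and related lists were chosen with earlier results of these data known. The genes named are called members, all mitochondrial genes, the extremes of each complex, core and catalytic subunits, isoforms and up to 4 called genes per related list. Not every gene this takes is reported here. Ndufs5, Ndufa6, Ndufc1, Ndufa10, Uqcr10, Uqcrq, Atp5g1, Atp5g2, Atp5j, Atp5j2, Cyc1 and Cycs were named after their values were seen. Transcript lengths came from GENCODE M21 (89 of 92 members matched) and upstream sequences from RefSeq (66 of 79 nuclear members matched), by symbol, on GRCm38 builds, and no coordinates were transferred. Alternatives were other scalings and filters, DESeq2 1.42.0, limma-voom (limma 3.58.1), a replicate block, an adjusted p of 0.01 and omission of each library. Omission of control 1 and MNP 1 together was added after seeing the data. The 16 alternatives counted for single genes include that omission. They leave out the adjusted p of 0.01, which was applied only to counts of calls.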

Additional observations from a re-analysis of the deposited data

How the results depend on the processing

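COX1, Cox5a, Mrps6 and Mrpl52 kept their direction and call in all 16 alternatives, and the other called genes lost the call in some of them. With library totals alone, 757 genes rose and 1941 fell, against 1174 and 1076. Members called were then 2 higher (1 mitochondrial, 1 nuclear) and 11 lower, the nuclear median was -0.083, and ND3 (-0.017), Atp5a1 (-0.021), Sdha (-0.071), Sdhb (-0.032), Uqcrc2 (-0.025) and Atpif1 (-0.038) changed sign. At an adjusted p under 0.01, 685 genes rose and 587 fell, with 2 members higher (1 mitochondrial, 1 nuclear) and 0 lower. Without the filter, 1533 genes rose and 1073 fell. Of the members, 16 were then higher (11 mitochondrial, 5 nuclear) and 1 lower, and Cox7a2l turned to 0.0067. limma-voom called 11 members higher, 4 of them nuclear, and DESeq2 1 mitochondrial and 4 nuclear. Without control 1 and MNP 1, 1230 genes rose and 1022 fell. Of the members, 11 were then higher, 9 of them mitochondrial, and ND3 turned to -0.032. Leaving out each library in turn gave 793 to 1241 genes higher and 672 to 1004 lower. Members were then 2 to 16 higher (without MNP 2 and without control 3) and 0 to 3 lower. Mitochondrial members called higher were 1 to 11 and nuclear ones 1 to 5, and nuclear medians were -0.015 to 0.047. Log2 fold changes were -0.10 to 0.21 for ND3 and -0.065 to 0.040 for ND6. They were -0.091 to 0.0050 for Uqcrc1, -0.015 to 0.12 for Uqcrc2 and -0.064 to 0.014 for Cox7a2l. ND6 was positive by RLE scaling (0.00053), without the filter (0.031), with at least 10 counts in 3 libraries (0.0015), by DESeq2 (0.00055), by limma-voom (0.00055), with the replicate block (0.00011) and without control 1 and MNP 1 (0.020). Where no value shows it, the cause was not tested.

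Same-numbered libraries of the groups had deviations from their group means that correlated at 0.09, 0.03 and -0.02 over genes, and controls 2 and 3 correlated best with another number, so the numbers were not taken to pair the samples. With the replicate block, 17 members were higher (11 mitochondrial, 6 nuclear) and 6 lower, including 2 higher and 2 lower nuclear members of complex I. Calls over all genes were then also more frequent, 1432 higher (11.1%) and 1254 lower (9.73%).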
